A study of Homo sapiens with 72 samples.

Results

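The genes described are 34 that serve protein folding in the endoplasmic reticulum (ER), the unfolded protein response and the channel through which new proteins enter the ER. They were taken by symbol from 11 tables of differential expression, each listing 61541 human genes, and all 34 were found and tested in every table. They comprise 9 chaperones and co-chaperones, 4 disulfide isomerases, 2 secreted stress proteins, 4 genes of ER-associated degradation, 3 sensors or transcription factors, 3 subunits of the Sec61 translocon, 4 subunits of the TRAP complex, 3 subunits of signal peptidase and 2 subunits of the COPII coat. The series concerns G3BP1, an RNA-binding protein needed for stress granules, which are cytoplasmic condensates of mRNA with protein seen under stress. It holds 72 libraries, of which 24 in 11 groups are used and 48 are not analysed here.

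RNA immunoprecipitation with sequencing (RIP-seq) was made in FlpIn 293 Trex cells, a line from human embryonic kidney. They carried a stable FLAG-G3BP1 gene induced with tetracycline at 1 ug/mL for 24 h, in both the 3 immunoprecipitate (IP) and the 3 input libraries, over whatever G3BP1 the line makes itself. All other libraries were RNA-seq of U2OS cells, a human bone osteosarcoma line, with 2 libraries per group. In the first experiment the groups were wild-type cells, G3BP1/2 knockout cells, and knockout cells 24 h after Lipofectamine transfection with a G3BP1 transgene. The second experiment used the knockout throughout, either untransfected, transfected with wild-type G3BP1 (wild-type rescue), or transfected with G3BP1 that lacks its NTF2 domain (NTF2-deletion rescue). Each of these 3 was left untreated or given 200 uM sodium arsenite, an oxidant that induces stress granules, for 2 h. No mock-transfected knockout group was analysed here, so transfection and G3BP1 cannot be told apart in any rescue comparison. The labels do not say whether the knockout is a single clone, nor whether replicate libraries came from separate cultures, so p-values measure the spread between these libraries, which may be technical.

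The ER folds proteins that are to be secreted or placed in membranes. When unfolded proteins build up there, the chaperone BiP (HSPA5) leaves the sensors IRE1 (ERN1), ATF6 and PERK. IRE1 then splices the XBP1 mRNA, cleaved ATF6 enters the nucleus, and the factors XBP1 and ATF6 raise transcription of chaperones, disulfide isomerases and degradation genes, while PERK slows translation and favours ATF4 and DDIT3. The mRNAs of most of these genes are translated on the ER surface.

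Reads in genes, as recovered from the base means, ran from 35.6 to 48.3 M (1e6) per library in the first experiment and from 10.1 to 24.7 M in the second. They leave out 7 genes that were not recovered, G3BP1 among them. In the RIP table the base means, which are normalised, summed to 12.2 M over all genes, a measure unlike the recovered reads. The 34 genes were well covered: the lowest value in a U2OS library was 149 normalised reads, for DNAJB9. The 2 libraries of a group differed by a median of 0.04 to 0.10 log2 units over the 34 genes, and by 0.31 at most, for SDF2L1 in arsenite-treated knockout cells. In the authors' deposited tables G3BP1 had a log2 fold change of -0.56 for knockout over wild type, and transcripts of the targeted gene were thus still counted. The knockout stood at -0.69 against the first experiment's rescue in the authors' deposited table, whereas in the second experiment the authors' deposited tables gave rises of 7.31 with the wild-type form and 7.75 with the NTF2-deletion form. G3BP2 had 8622 and 8091 normalised reads in wild type, 6610 and 6399 in knockout and 7739 and 7666 in the first rescue, and -0.36 for knockout over wild type in the authors' deposited table. In the second experiment G3BP2 was higher than in knockout by 0.55 with wild-type G3BP1 and by 0.57 with the deletion form in the authors' deposited tables. The transcript levels of both targeted genes thus do not by themselves show the knockout. The 2 experiments differ widely in how much G3BP1 mRNA was added. Of 9 osteoblast-lineage markers, 5 had a base mean of at least 100 in each U2OS experiment. SP7, BGLAP and IBSP lay under 10 in both experiments, and COL1A2 did so in the second. Of these 9, 0 reached 100 in RIP. Of 7 markers of the kidney line, 4 were at least 100 in the RIP table, but so were 5 in the first and 3 in the second U2OS experiment, and the list does not tell the lines apart. Of 6 markers of other cell types, 1 reached 100 in the RIP table and in the first experiment and 0 in the second.

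Promoters of 31 of the 34 genes were present in a RefSeq table of 35116 windows of 300 bases (GRCh38.p14, 250 bases before and 50 after the start site). Both strands were searched for the ER stress response element (ERSE, CCAAT followed after 9 bases by CCACG) and for ERSE-II (ATTGG followed after 1 base by CCACG), the sites to which ATF6 and XBP1 bind together with NF-Y. ERSE was found in 7 of the 31 genes, CALR, CANX, CRELD2, HSP90B1, HSPA5, PDIA6 and XBP1, against 0.0769% of all windows. ERSE-II was found in 3 more, HERPUD1, HYOU1 and SDF2L1, against 0.0541% of windows. The XBP1-type element TGACGTGG was present in HYOU1, SSR3 and SSR4 and in 0.729% of windows. The heat shock element and the amino acid response element TGATGNAAT, which ATF4 binds, were found in 0 of the 31, against 0.490% and 0.991% of windows. Genes with some of the largest changes, MANF, DNAJB9 and SSR3 in knockout cells and SSR3, ERN1 and PDIA4 with rescue, held neither ERSE nor ERSE-II. The 6 windows below are examples of genes with a match. XBP1, CRELD2, HERPUD1 and SDF2L1 fell in knockout cells, and HSPA5 and CALR were called in opposite directions in the second experiment's rescues. Whether the changes follow the element was not tested in these 6 windows. Each is read along the gene's own strand with the element in capitals, and 3 hold it in reverse.
HSPA5: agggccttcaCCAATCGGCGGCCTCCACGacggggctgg
XBP1: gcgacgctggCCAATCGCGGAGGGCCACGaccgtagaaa
CRELD2: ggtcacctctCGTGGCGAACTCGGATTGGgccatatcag
CALR: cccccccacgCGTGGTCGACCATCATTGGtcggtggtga
HERPUD1: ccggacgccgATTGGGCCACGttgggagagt
SDF2L1: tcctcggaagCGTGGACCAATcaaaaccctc
They lie at chr9:125241381-125241419 (minus strand), chr22:28800593-28800631 (minus), chr22:49918544-49918582 (plus), chr19:12938374-12938412 (plus), chr16:56932015-56932045 (plus) and chr22:21642104-21642134 (plus) of GRCh38.p14. In HSPA5 the window ends 38 bases before the start site, in XBP1 24 bases before it and in CRELD2 52 bases before it. A match describes these letters only, and no binding was measured.

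RIP-seq asked which RNAs were recovered with FLAG-G3BP1. Of the 34 genes, 21 were higher in IP than in input and 8 were lower, at an adjusted p under 0.05. Over all genes tested, 24.7% were called higher and 31.4% lower (56.1% called in all). The median log2 fold change of the 34 was 0.56, against -0.26 over all genes tested and 0.12 over those whose base mean reached 100. All 3 Sec61 subunits, 3 of 4 TRAP subunits and both secreted stress proteins were enriched, whereas 3 of the 4 degradation genes were depleted. Of 22 further degradation genes, 14 were enriched and 4 depleted, with a median of 0.71. Over the 34 genes the fold change also ran against annotated gene length, introns included (Spearman correlation -0.63). Median length was 11904 bases for genes called higher and 47280 bases for those called lower. Whether role or length goes with enrichment was not tested. The RIP libraries' separate values could not be recovered from the single table, so each value rests on the authors' deposited table with its standard error (SE).

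**Figure D1:**
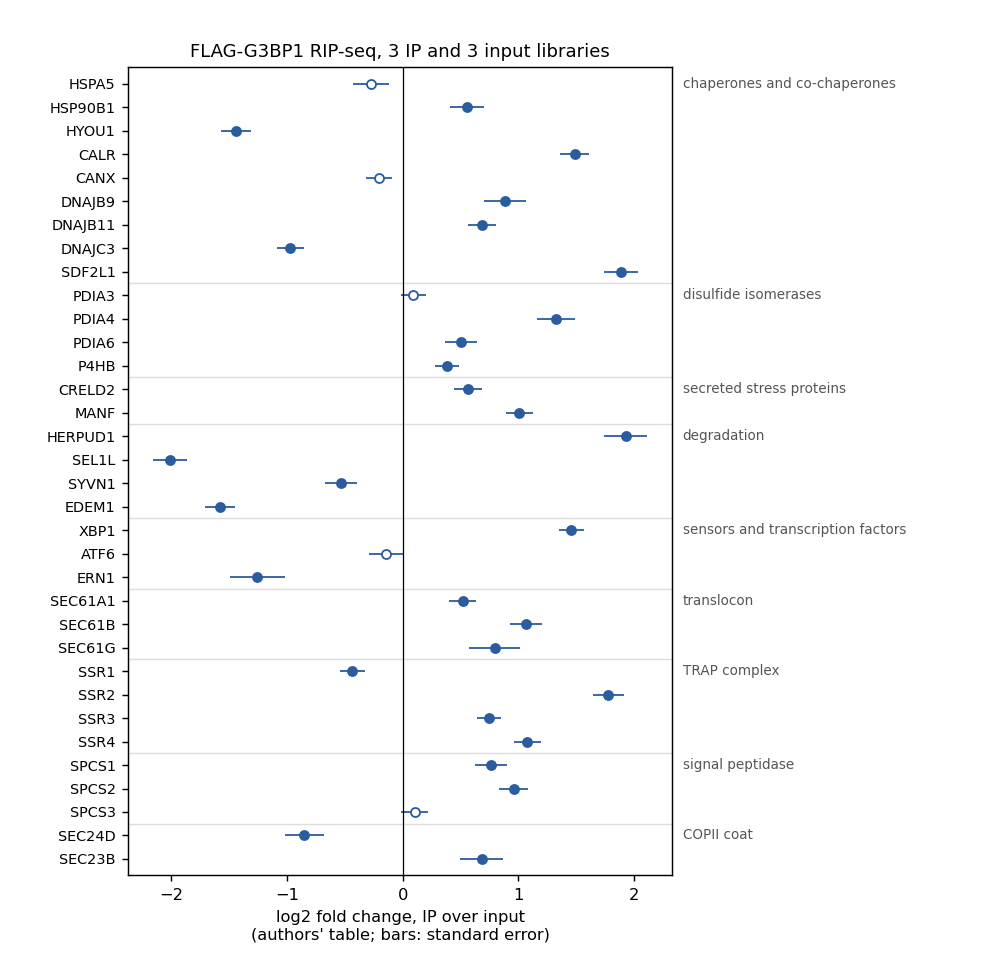
Log2 fold change of IP over input for each of the 34 genes (horizontal axis, authors' deposited table, bars are SE, n = 3 libraries per group), grouped by role. Filled points passed an adjusted p of 0.05; 3 of the 4 degradation genes lie left of 0 and all 3 translocon subunits right of it.

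Of the chaperones, 5 of 9 were enriched and 2 depleted. SDF2L1, a partner of the BiP co-chaperones, stood at 1.89 in the authors' deposited table (SE 0.15, adjusted p 2.34e-36), and CALR, the calcium-binding lectin calreticulin, at 1.49 (SE 0.13, adjusted p 1.49e-31). HYOU1, a large HSP70-type chaperone that releases nucleotide from BiP, was at -1.44 (SE 0.13) in the authors' deposited table, and DNAJC3, which also binds BiP, at -0.97. HSPA5 itself, at -0.27, and the membrane lectin calnexin (CANX), at -0.20, did not pass the test in the authors' deposited table (adjusted p 0.116 and 0.103). Relative to the table median both were called lower, at -0.39 (adjusted p 0.0192) and -0.32 (adjusted p 0.00686), which makes 10 of the 34 lower. The soluble lectin and its membrane-bound relative thus differed in place, although that difference was not tested.

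The disulfide isomerases PDIA4, PDIA6 and P4HB were enriched, at 1.33, 0.50 and 0.38 in the authors' deposited table, and PDIA3, at 0.09, did not pass the test. Both secreted stress proteins were enriched, MANF at 1.01 and CRELD2 at 0.56 in the authors' deposited table. HERPUD1, a small membrane protein that assists the degradation ligase, had the highest value of the 34, at 1.93 (SE 0.19, adjusted p 2.10e-24) per the authors' deposited table. The other 3 genes of degradation were depleted in the authors' deposited table: the ligase partner SEL1L at -2.01 (SE 0.14, adjusted p 6.23e-43), the mannosidase-like EDEM1 at -1.58 (SE 0.13) and the ligase SYVN1 at -0.53. XBP1 was enriched at 1.46 (SE 0.11) in the authors' deposited table, while ERN1, the kinase and nuclease that splices its mRNA, was depleted at -1.26 (SE 0.24), and ATF6, at -0.14, was not called.

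All 3 translocon subunits were enriched in the authors' deposited table, SEC61B at 1.06, SEC61G at 0.79 and the channel subunit SEC61A1 at 0.52. Of the TRAP complex, which sits beside the channel, SSR2 (1.78, SE 0.14), SSR4 (1.08) and SSR3 (0.75) were enriched in the authors' deposited table and SSR1 was depleted at -0.44. The signal peptidase subunits SPCS2 and SPCS1 were enriched at 0.96 and 0.76 in the authors' deposited table, and the third subunit SPCS3, at 0.10, was not. The COPII subunits went apart, SEC23B at 0.68 and SEC24D at -0.85 in the authors' deposited table. Of 125 further genes of these pathways, 71 were higher and 25 lower in IP. The highest in the authors' deposited table were EDEM2 (2.27), a mannosidase of degradation, and SRPRB (2.08), a subunit of the signal recognition particle receptor, and the lowest were the COPII organiser SEC16A (-3.72) and the folding sensor UGGT1 (-3.26). The Wald statistics had a robust spread of 3.84, where the test assumes 1 for unchanged genes. The spread was taken over all genes tested, of which 56.1% were called, so it does not show whether the SEs are too small. Scaling by it is a strict alternative that left 4 of the 34 genes higher (SDF2L1, SSR2, CALR and XBP1) and 3 lower (SEL1L, EDEM1 and HYOU1). The table's centre is set by all genes, so a value near 0 is no measure of absolute binding.

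Loss of G3BP1 and G3BP2 was examined by knockout against wild-type U2OS cells. Of the 34 genes, 19 were lower in knockout cells and 4 were higher, against 19.4% lower and 18.4% higher among all genes tested. The lower genes included 7 of the 9 chaperones, 3 of the 4 disulfide isomerases, both secreted stress proteins and both COPII subunits. In the wider list of 32 other chaperones and folding enzymes the split was the reverse, with 14 higher and 7 lower and a median of 0.14. The median log2 fold change of the 34 was -0.18, against 0.01 over all genes tested.

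CRELD2 (ENSG00000184164), a secreted protein induced by ER stress, had 4878 and 4379 normalised reads in the wild-type libraries and 2289 and 2143 in the knockout. The authors' deposited table gave a log2 fold change of -1.06 for CRELD2 (SE 0.08, adjusted p 8.90e-43). MANF, the other secreted stress protein, had 5723 and 5436 normalised reads in wild type and 3316 and 3115 in knockout. Its fold change was -0.79 (SE 0.07, adjusted p 1.76e-32) per the authors' deposited table. For both genes each wild-type library lay above each knockout library.

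DNAJB9, a co-chaperone of BiP that restrains ERN1, had 1405 and 1361 normalised reads in wild type and 861 and 785 in knockout, with a fold change of -0.74 (SE 0.11, adjusted p 1.62e-11) per the authors' deposited table. SDF2L1 at -0.70, SSR3 at -0.69, and HERPUD1 and XBP1 at -0.66 each followed in the authors' deposited table. Falls were smaller for the abundant chaperones, with HSPA5 at -0.23 (adjusted p 2.13e-06) and HSP90B1, the ER form of HSP90, at -0.15 (adjusted p 0.00499) per the authors' deposited table. CALR at -0.04 and HYOU1 at 0.00 did not pass the test (adjusted p 0.665 and 0.985 in the authors' deposited table).

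SPCS3 (ENSG00000129128), the largest riser, had 3283 and 3284 normalised reads in wild type and 5957 and 5678 in knockout. The authors' deposited table gave 0.82 for SPCS3 (SE 0.06, adjusted p 7.03e-38). ERN1 had 1240 and 1152 normalised reads in wild type and 1559 and 1540 in knockout, a fold change of 0.37 (SE 0.09, adjusted p 0.000458) per the authors' deposited table. SEL1L had 13127 and 12690 normalised reads in wild type and 15785 and 14661 in knockout, a fold change of 0.23 (SE 0.05) in the authors' deposited table. In none of these 3 did the groups overlap, and SEC61A1 was the fourth gene called higher, at 0.12 in the authors' deposited table.

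Of the 10 genes with ERSE or ERSE-II, 7 were lower in knockout cells and 0 higher, and of the 21 genes without, 10 were lower and 4 higher. Among the other genes of these pathways 45 were lower and 32 higher. In the authors' deposited table the lowest were EDEM2 (-1.23) and the COPII subunit SEC23A (-1.18), and the highest were the thioredoxin-like TXNDC12 (1.09) and the prolyl isomerase FKBP7 (0.95). With the Wald statistics divided by their spread of 2.35, 8 of the 34 genes remained lower and 1 higher, and without the shallower knockout library the limma fit called 7 higher.

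**Figure D2:**
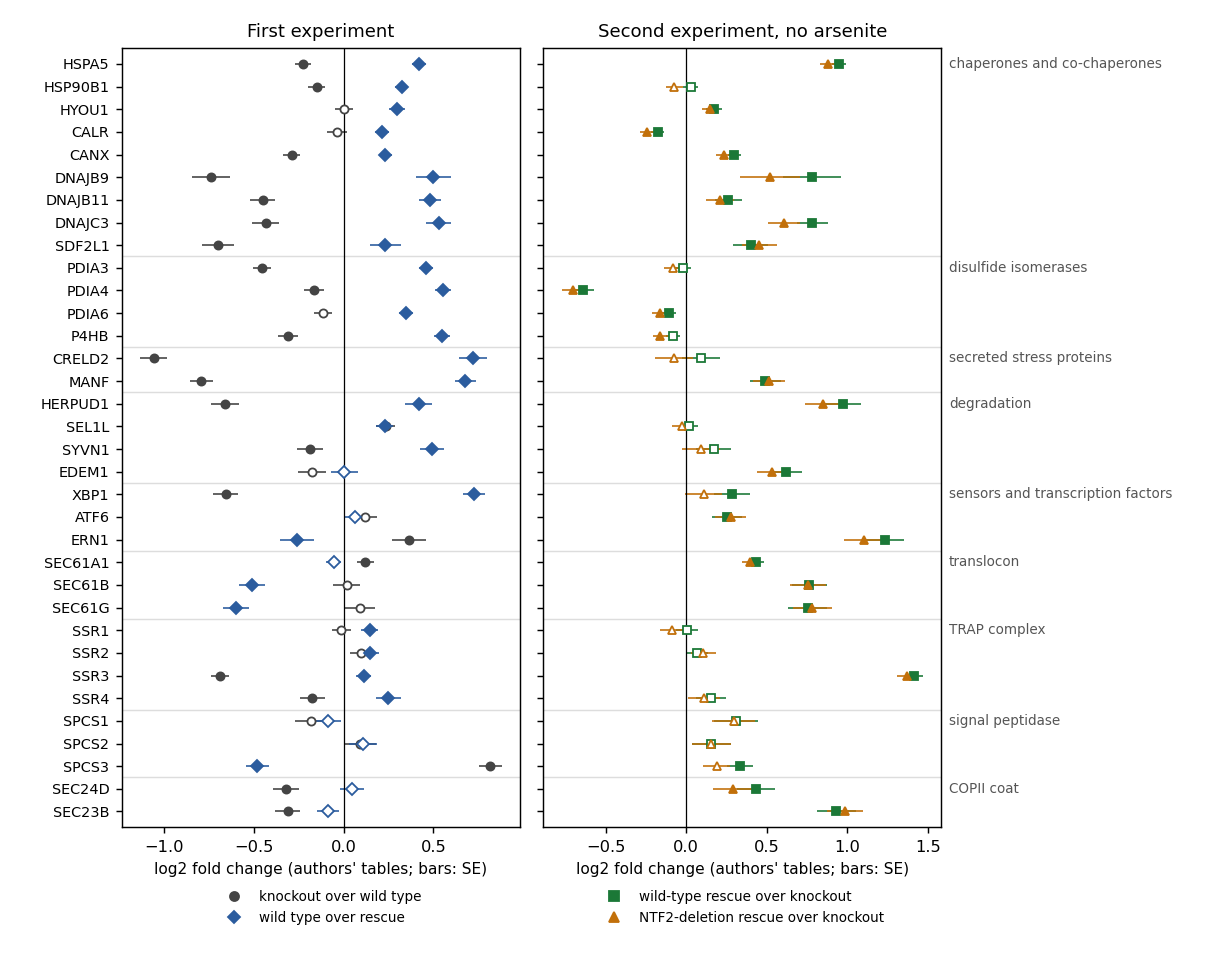
Log2 fold changes of the 34 genes in the authors' deposited tables (horizontal axes, bars are SE, 2 libraries per group), grouped by role. Left, knockout over wild type and wild type over rescue in the first experiment, which share the wild-type libraries; right, both rescues over knockout in the second experiment, which share the knockout libraries. Filled symbols passed an adjusted p of 0.05; CRELD2, MANF and XBP1 lie far left in knockout cells, and SSR3, ERN1 and HERPUD1 far right with rescue.

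The first experiment's rescue was compared with wild-type and with knockout cells. Against the rescue, wild-type cells were higher in 23 of the 34 genes and lower in 4, where 15.2% and 20.4% of all genes tested were called. All 9 chaperones and all 4 disulfide isomerases were higher in wild type, as were all 10 genes with ERSE or ERSE-II. Of the 21 genes without either element, 12 were higher and 4 lower. Knockout cells were higher than rescue in 14 genes and lower in 10, against 16.1% and 21.5% of all genes tested. The 2 comparisons share the rescue libraries.

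XBP1 had 4083 and 4080 normalised reads in wild type and 2382 and 2447 in rescue, with the knockout at 2656 and 2513. Wild type over rescue was 0.73 (SE 0.06, adjusted p 5.17e-29) per the authors' deposited table. CRELD2 stood at 2510 and 2972 normalised reads in rescue, giving 0.72 for wild type over rescue (SE 0.08, adjusted p 3.22e-18) per the authors' deposited table. MANF stood at 3340 and 3501 normalised reads in rescue, giving 0.68 (SE 0.06, adjusted p 1.62e-28) per the authors' deposited table. For all 3 genes the rescue libraries lay below both wild-type libraries, and of the 3 only CRELD2 differed between knockout and rescue (-0.31, adjusted p 0.000912, in the authors' deposited table).

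The translocon's small subunits took another course. SEC61G had 1733 and 1770 normalised reads in wild type, 1840 and 1900 in knockout and 2658 and 2602 in rescue. SEC61B had 2470 and 2335 in wild type, 2494 and 2376 in knockout and 3227 and 3550 in rescue. In the authors' deposited tables knockout over rescue was -0.50 for SEC61G (SE 0.07, adjusted p 4.98e-11) and -0.48 for SEC61B (SE 0.07, adjusted p 1.64e-10), and wild type over rescue was -0.60 and -0.51. Both genes were thus highest in the transfected cells and did not differ beyond the test between knockout and wild type.

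SSR3 (ENSG00000114850), a TRAP subunit, had 15348 and 14961 normalised reads in wild type, 9559 and 9246 in knockout and 13918 and 13733 in rescue. Knockout over rescue was -0.57 (SE 0.04, adjusted p 1.34e-35) and wild type over rescue 0.11 (adjusted p 0.0303) per the authors' deposited tables. SPCS3, with 4690 and 4377 normalised reads in rescue, also lay between the other groups, at 0.34 for knockout over rescue (SE 0.06) and -0.48 for wild type over rescue (SE 0.06) in the authors' deposited tables. SEL1L (0.47, SE 0.05, adjusted p 3.98e-21) and PDIA4 (0.40, SE 0.05, adjusted p 1.59e-12) were the genes most reduced in rescue relative to knockout in the authors' deposited table. SEL1L had 11031 and 10661 normalised reads in rescue, and PDIA4 had 11511 and 10420 in knockout against 8138 and 8315 in rescue. Of the other genes of these pathways, DNAJC1 (0.79) and FKBP7 (1.06) were highest and PPP1R15A (-0.997) and SRP68 (-0.80) lowest for knockout over rescue in the authors' deposited table. For wild type over rescue the authors' deposited table gave EIF2AK3, which encodes PERK, at 0.76, DDIT4 at 0.70, SGTA at -0.51 and SRP9 at -0.46. With the Wald statistics divided by their spread, 14 of the 34 genes remained higher in wild type than in rescue, and knockout against rescue fell to 3 higher and 3 lower. Without the deeper knockout library the limma fit called 9 genes higher in knockout than in rescue.

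**Figure D3:**
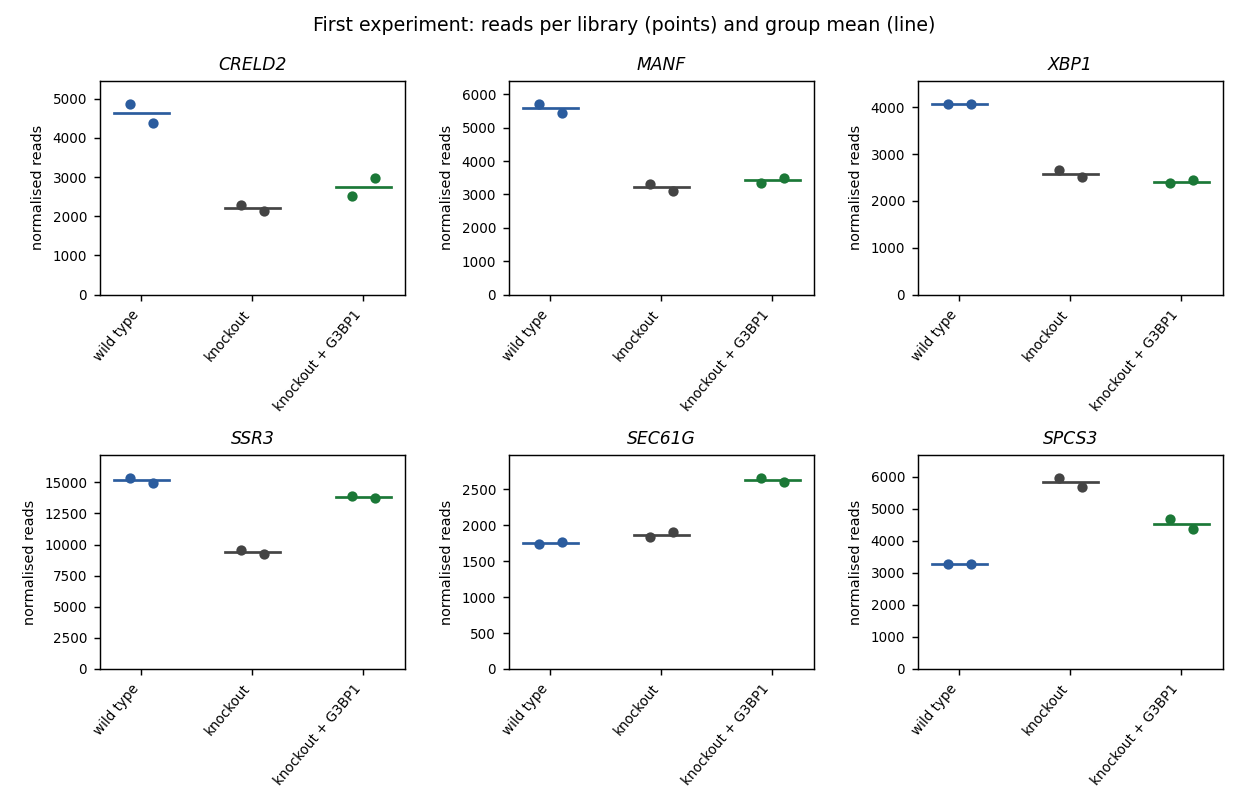
Normalised reads (vertical axes, from 0) of 6 genes in the 2 libraries of each group of the first experiment; points are libraries and lines group means. MANF and XBP1 stayed near the knockout level in rescue, CRELD2, SSR3 and SPCS3 lay between knockout and wild type, and SEC61G was highest in rescue.

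In the second experiment both forms of G3BP1 were compared with untransfected knockout cells without arsenite. With wild-type G3BP1, 20 of the 34 genes were higher and 3 lower, against 23% higher and 19.1% lower among all genes tested (42.1% in all). With the NTF2-deletion form, 18 were higher and 4 lower, against 22.8% and 18.7% (41.5% in all). These 2 comparisons share the knockout libraries. Among genes whose base mean reached 100, the median was itself 0.18 in the first of these tables and 0.17 in the second, so the tables are not centred at 0. Relative to these medians 13 of the 34 were higher and 8 lower with wild-type G3BP1, and 12 higher and 8 lower with the deletion form. The shares of all genes called after this centring were not computed, and the shares above do not apply to these counts.

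SSR3 had 3017 and 2860 normalised reads in knockout, 7752 and 7703 in wild-type rescue and 7285 and 7715 in NTF2-deletion rescue. Its fold changes were 1.41 (SE 0.06, adjusted p 4.19e-136) and 1.37 (SE 0.06, adjusted p 6.35e-105) per the authors' deposited tables. ERN1 had 489 and 458 normalised reads in knockout, 1134 and 1078 in wild-type rescue and 1030 and 989 in NTF2-deletion rescue. The authors' deposited tables gave 1.23 (SE 0.12) and 1.10 (SE 0.12) for ERN1. For each gene the 4 rescue libraries lay far above both knockout libraries.

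HERPUD1 had 622 and 607 normalised reads in knockout, 1195 and 1194 in wild-type rescue and 1087 and 1106 in NTF2-deletion rescue, with fold changes of 0.97 (SE 0.11, adjusted p 2.16e-17) and 0.85 (SE 0.11, adjusted p 7.75e-13) per the authors' deposited tables. HSPA5 had 14069 and 14386 normalised reads in knockout, 27662 and 26457 in wild-type rescue and 25436 and 26068 in NTF2-deletion rescue, with fold changes of 0.95 (SE 0.04, adjusted p 1.34e-114) and 0.88 (SE 0.04, adjusted p 2.03e-83) per the authors' deposited tables. SEC23B had 569 and 597 normalised reads in knockout, 1164 and 1042 in wild-type rescue and 1139 and 1148 in NTF2-deletion rescue, with 0.93 (SE 0.12) and 0.99 (SE 0.11) in the authors' deposited tables. BiP, the COPII subunit and the degradation gene rose in both rescues, their libraries did not overlap those of knockout, and each stayed called relative to the table medians. SEC61B (0.76 and 0.76), SEC61G (0.75 and 0.78) and SEC61A1 (0.44 and 0.40) were also higher in the authors' deposited tables.

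The genes called lower were PDIA4, CALR and PDIA6 in both rescues. With them, 2 of the 4 disulfide isomerases were lower with wild-type G3BP1 and 3 of 4 with the deletion form, where P4HB was the third, and PDIA3 was called in neither. PDIA4 had 3703 and 3772 normalised reads in knockout, 2362 and 2361 in wild-type rescue and 2319 and 2194 in NTF2-deletion rescue. Its fold changes were -0.64 (SE 0.07, adjusted p 3.00e-21) and -0.70 (SE 0.07, adjusted p 9.31e-22) per the authors' deposited tables. CALR had 21641 and 21734 normalised reads in knockout, 19195 and 18620 in wild-type rescue and 18139 and 17931 in NTF2-deletion rescue, with -0.18 (SE 0.04, adjusted p 2.86e-05) and -0.24 (SE 0.04, adjusted p 2.36e-07) per the authors' deposited tables. PDIA6 had 10286 and 10052 normalised reads in knockout, 9317 and 9285 in wild-type rescue and 8874 and 8998 in NTF2-deletion rescue, with -0.11 (SE 0.05) and -0.16 (SE 0.05) in the authors' deposited tables. In all 3 genes the rescue libraries lay below the knockout libraries. HSPA5 and PDIA4, both textbook targets of the unfolded protein response, thus changed in opposite directions, and so did the ERSE-bearing genes HSPA5 and CALR.

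**Figure D4:**
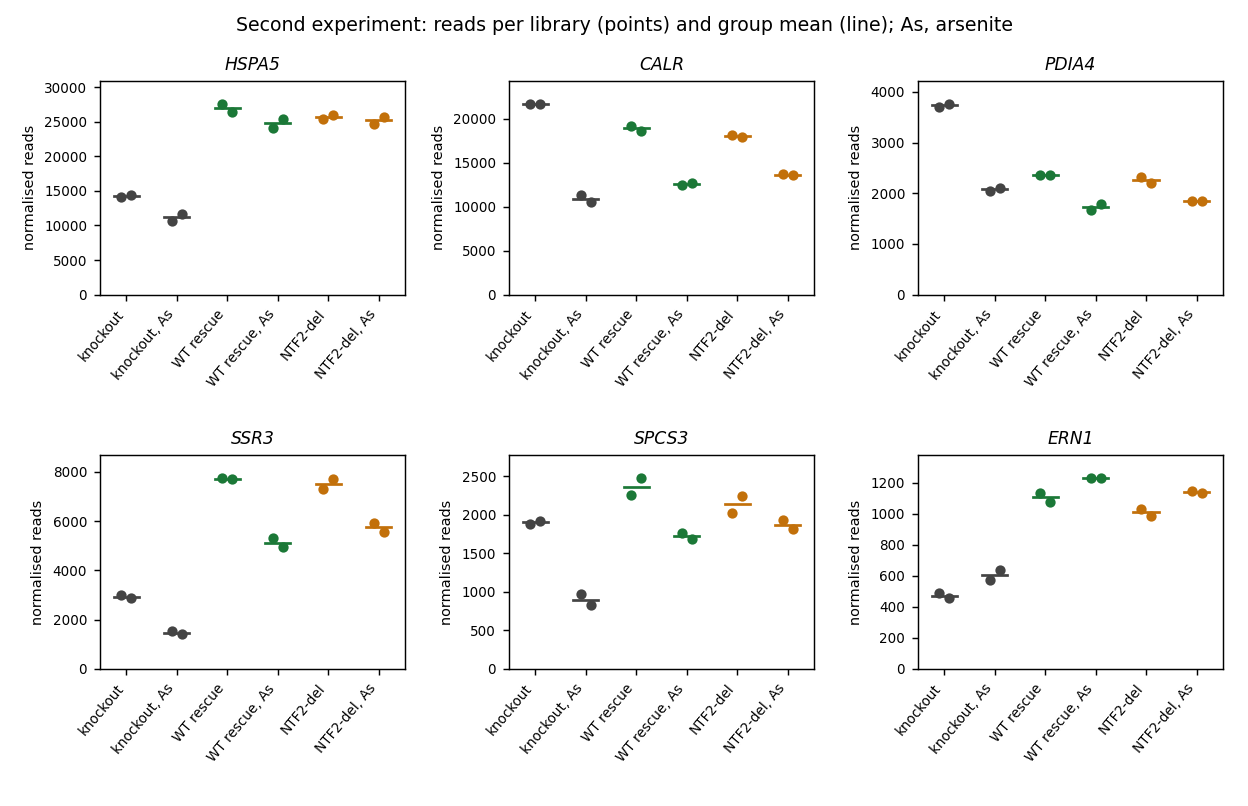
Normalised reads (vertical axes, from 0) of 6 genes in the 2 libraries of each group of the second experiment, without and with arsenite (As); points are libraries and lines group means. HSPA5, SSR3 and ERN1 were higher in both rescues than in knockout, PDIA4 and CALR lower, and arsenite lowered CALR and SSR3 in all 3 kinds of cell.

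The 2 forms of G3BP1 were set against each other by the difference of their fold changes. Of the 34 genes, 0 differed in this test (normal approximation on the authors' fold changes and standard errors), where 0.0185% of all genes tested were called. At an unadjusted p under 0.05 the count was also 0, and the limma fit called 0 as well. The same knockout libraries enter both fold changes, and their spread is counted in each SE although it cancels in the difference. The test on the authors' values is thus conservative. The largest difference was 0.26 (SE 0.26) for DNAJB9. A missed threshold does not show that the forms act alike.

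The rescues of the first and second experiments share no library. Of the 10 genes higher with G3BP1 than in knockout in the first, 8 were also higher with wild-type G3BP1 in the second: EDEM1, HERPUD1, SDF2L1, SEC23B, SEC24D, SEC61B, SEC61G and SSR3. They make 8 of the 20 genes higher in the second. How many of all genes were called in the same direction in both experiments was not computed. The overlap thus cannot be read as particular to these genes. Of the 14 genes lower with G3BP1 in the first experiment, CALR, PDIA4 and PDIA6 were lower in the second as well, while HSPA5, HYOU1, ATF6 and SPCS3 were higher. Relative to the table medians, EDEM1 and HERPUD1 lost the call in the first experiment, SDF2L1, SEC24D, ATF6 and SPCS3 lost it in the second, and HYOU1 turned to -0.00 there. For HSPA5, knockout libraries of the first experiment had 53161 and 50223 normalised reads and rescue libraries 43636 and 45209, the reverse of the order in the second. Whether the experiments differ was not tested, and the amount of G3BP1 mRNA differed between them as given above.

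Of the 8 genes of the PERK branch list, none among the 34, 5 were higher and 0 lower with wild-type G3BP1, and 6 were higher and 1 lower with the deletion form. The lower one was DDIT4, an inhibitor of mTORC1 signalling, at -1.31 in the authors' deposited table, named after its value was seen. In the authors' deposited tables PPP1R15A, the phosphatase subunit that restores translation, was higher by 2.87 with wild-type G3BP1 and by 2.64 with the deletion form, and DDIT3, a transcription factor of prolonged ER stress, by 1.81 and 1.62. FKBP7 at -1.65 and -1.78 and the cargo receptor KDELR3 at -1.30 and -1.43 were the lowest of the 125 further genes in the authors' deposited tables. With the Wald statistics divided by their spread, 7 of the 34 genes remained higher and 1 lower in wild-type rescue, and 6 and 1 in NTF2-deletion rescue. Without the shallower NTF2-deletion library the limma fit called 7 genes lower in that rescue.

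The response to arsenite was compared in the 3 kinds of cell, which share no library. In knockout cells 27 of the 34 genes fell and 0 rose, against 10.9% lower and 8.56% higher among all genes tested. In wild-type rescue 26 fell and 0 rose, against 12.2% and 8.18%. In NTF2-deletion rescue 17 fell and 0 rose, against 6.14% and 2.43% (8.57% in all). All 4 disulfide isomerases and all 4 TRAP subunits fell in each of the 3. Besides the fallers, ERN1, SEC23B and SEC24D were higher in arsenite-treated knockout cells at an unadjusted p under 0.05 and in the limma fit, and the corresponding counts were 1 and 0 in wild-type rescue and 0 and 0 in NTF2-deletion rescue.

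The members' joint share of recovered gene reads shows the size of the change. In knockout cells it was 1.23% and 1.20% without arsenite and 0.713% and 0.734% with it. In wild-type rescue it was 1.26% and 1.23% without and 0.948% and 0.967% with arsenite. In NTF2-deletion rescue it was 1.17% and 1.20% without and 1.01% and 1.00% with arsenite. Every treated library lay below every untreated one. G3BP1 reads are not in these totals because they were not recovered.

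In knockout cells the lowest fold changes were those of SPCS3, SSR1 and CALR. SPCS3, a subunit of signal peptidase, went from 1885 and 1920 to 967 and 824 normalised reads with arsenite, -1.05 (SE 0.10, adjusted p 1.85e-23) per the authors' deposited table. SSR1 went from 3009 and 2838 to 1375 and 1398, -1.04 (SE 0.08, adjusted p 4.77e-34) per the authors' deposited table. CALR went from 21641 and 21734 to 11289 and 10530, -0.97 (SE 0.06, adjusted p 4.42e-67) per the authors' deposited table. For all 3 genes both treated libraries lay far below both untreated ones, which their choice as the lowest makes likely.

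In wild-type rescue the lowest were SSR1, SSR3 and CALR. SSR1 went from 2889 and 2902 to 1931 and 1800 normalised reads, -0.64 (SE 0.05, adjusted p 4.93e-37) per the authors' deposited table. SSR3 went from 7752 and 7703 to 5315 and 4940, -0.60 (SE 0.04, adjusted p 5.88e-49) per the authors' deposited table. CALR went from 19195 and 18620 to 12520 and 12720, -0.60 (SE 0.03, adjusted p 1.46e-73) per the authors' deposited table. No treated library of these genes overlapped an untreated one.

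In NTF2-deletion rescue the falls were shallower. SSR4 went from 1321 and 1234 to 880 and 909 normalised reads, -0.46 (SE 0.08, adjusted p 2.07e-06) per the authors' deposited table. SSR2 went from 3245 and 2969 to 2316 and 2209, -0.43 (SE 0.06, adjusted p 1.05e-09) per the authors' deposited table. PDIA3, the isomerase that works with CALR and CANX, went from 7235 and 7470 to 5469 and 5436, -0.42 (SE 0.04, adjusted p 8.78e-19) per the authors' deposited table. Here too the treated and untreated libraries did not overlap.

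HSPA5 had the smallest fall of the 9 chaperones in knockout cells. It went from 14069 and 14386 to 10677 and 11681 normalised reads in knockout, from 27662 and 26457 to 24134 and 25405 in wild-type rescue, and from 25436 and 26068 to 24705 and 25783 in NTF2-deletion rescue. The authors' deposited tables gave -0.33 (adjusted p 1.44e-06), -0.14 (adjusted p 0.000504) and -0.03 (adjusted p 0.794). In the last group the treated and untreated libraries overlapped. HERPUD1, SEC61B and SEC61G were not called in any of the 3 authors' deposited tables, with HERPUD1 at 0.04, -0.07 and -0.03. XBP1 was called only in knockout, at -0.48 (adjusted p 0.001) per the authors' deposited table. Read counts per gene do not separate the spliced from the unspliced XBP1 mRNA.

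**Figure D5:**
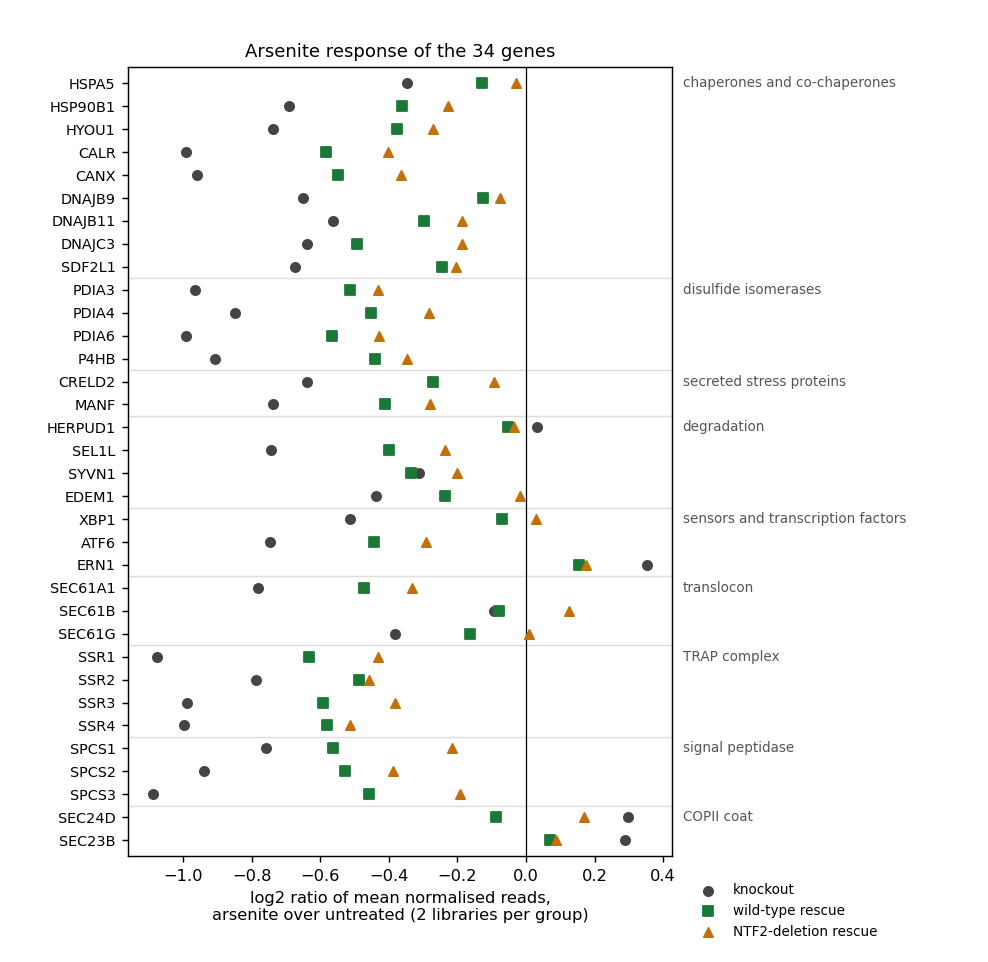
Log2 ratio of mean normalised reads, arsenite over untreated (horizontal axis, 2 libraries per group, no shrinkage), for the 34 genes in knockout cells, wild-type rescue and NTF2-deletion rescue. Medians were -0.74, -0.41 and -0.22, and for 29 of the 34 genes knockout lies left of wild-type rescue, which lies left of NTF2-deletion rescue.

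Whether the authors' fold changes are shrunk toward 0 is not given, so the responses were also compared as plain ratios of the recovered reads. The median log2 ratio over the 34 genes was -0.74 for knockout, -0.41 for wild-type rescue and -0.22 for the NTF2-deletion form, with 30, 32 and 28 of the 34 below 0. The order knockout, wild-type rescue, NTF2-deletion rescue, from the deepest fall, held in 29 of the 34. Wild-type rescue lay below NTF2-deletion rescue in 34 of 34. In the limma fit 46.9% of all 11008 genes with mean reads of at least 100 had wild-type rescue below NTF2-deletion rescue, and their medians were -0.02, 0.03 and 0.01. Of the 1625 such genes that fell in knockout cells, 96.1% fell less in wild-type rescue and 74.8% had wild-type rescue below NTF2-deletion rescue, with medians of -0.57, -0.32 and -0.22. A shallower fall in the rescues was thus common to genes lowered by arsenite in knockout cells. Those genes were picked by their knockout response, so a smaller value elsewhere is in part built in.

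The test of the difference called 13 of the 34 genes as falling less in wild-type rescue than in knockout and 0 as falling more, against 1.82% and 2.68% of all genes tested (4.51% in all). The largest was SPCS3 at 0.58 (SE 0.11, adjusted p 2.52e-05), followed by P4HB at 0.43 (SE 0.07, adjusted p 1.80e-08) and PDIA3 at 0.42 (SE 0.07, adjusted p 7.60e-07). The limma fit on the recovered reads, with a prior count of 2 and variances drawn toward a trend over all genes, called 24 as falling less and 1, SEC24D, lower. For NTF2-deletion rescue against knockout 24 genes fell less and 0 more, against 4.04% and 3.08% of all genes tested (7.12% in all), led by SPCS3 at 0.87 (SE 0.12, adjusted p 2.27e-10) and SSR1 at 0.64 (SE 0.11, adjusted p 2.32e-07). The limma fit called 28, and at an unadjusted p under 0.05 there were 28 as well, for which the shares of all genes were not computed. Knockout libraries enter both of these tests, and the 2 results are not independent.

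Wild-type against NTF2-deletion rescue, with no library in common, gave 2 of the 34 genes with a deeper fall in wild-type rescue, against 0.227% of all genes tested (0.328% in either direction), and 0 with a shallower one. They were CALR, with a difference of -0.20 (SE 0.05, adjusted p 0.00979), and CANX, with -0.21 (SE 0.05, adjusted p 0.0298). Both calls were lost in the limma fit (adjusted p 0.563 for CALR and 0.565 for CANX), which called 0 of the 34. In the test on the authors' values 19 were lower at an unadjusted p under 0.05. The share of all genes at that threshold was not computed, so the 19 cannot be read as a result about the 34. The limma estimate for CALR was -0.18.

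The genes of the PERK branch list mostly moved against the 34 genes, and PERK activity itself was not measured. In knockout cells with arsenite DDIT3 rose by 3.24 and PPP1R15A by 2.84 in the authors' deposited table. The rises were 1.63 and 0.83 with wild-type G3BP1, and 1.38 and 0.64 with the NTF2-deletion form, per the authors' deposited tables. Of the 8 genes of this list 6 rose in knockout cells and 0 fell, and 7 of 8 rose in wild-type rescue and 6 of the 7 tested in NTF2-deletion rescue, with 0 falling. In contrast 26 of 30 other chaperones and folding enzymes, 10 of 12 subunits of the oligosaccharyltransferase, which attaches sugars to new proteins, and 13 of 21 other degradation genes fell in knockout cells. The lowest further genes in the authors' deposited tables were KDELR3 (-1.18) and the thioredoxin-like TMX1 (-1.14) in knockout, ERP44 (-0.73) and KDELR1 (-0.72) in wild-type rescue, and TXNDC5 (-0.50) and the protease MBTPS2 (-0.42), which cleaves ATF6, in NTF2-deletion rescue. The differences from knockout were -2.01 for PPP1R15A and -1.61 for DDIT3 in wild-type rescue and -2.20 and -1.86 in NTF2-deletion rescue, with TMX1 at 0.56 and OSTC at 0.52 the highest in the first and KDELR3 at 0.92 and FKBP7 at 0.87 in the second. Between the rescues TMBIM6 (-0.26) and KDELR1 (-0.32) fell more with wild-type G3BP1. DDIT3 and PPP1R15A already stood above knockout before arsenite in both rescues, by the values given above, so their responses start from unlike levels.

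Treated rescue cells were also tabled against untreated knockout cells, a comparison in which arsenite and G3BP1 change together. With wild-type G3BP1 and arsenite 12 genes were higher and 13 lower, against 25.1% and 19.8% of all genes tested, and with the NTF2-deletion form 13 were higher and 11 lower, against 23.3% and 19.6% (43% in all). The table medians were 0.22 and 0.19, and relative to them 8 were higher and 20 lower in the first and 10 higher and 15 lower in the second. The matching shares of all genes were not computed. ERN1 (1.43 and 1.30), SEC23B (1.05 and 1.09) and HERPUD1 (0.96 and 0.83) in the authors' deposited tables remained above the untreated knockout level, and PDIA4 (-1.05 and -0.97), CALR (-0.72 and -0.63) and PDIA6 (-0.63 and -0.58) lay below it. ERN1 had 1231 and 1232 normalised reads in treated wild-type rescue and 1150 and 1131 in treated NTF2-deletion rescue. SEC23B had 1208 and 1108 in treated wild-type rescue and 1214 and 1214 in treated NTF2-deletion rescue. HERPUD1 had 1171 and 1132 in treated wild-type rescue and 1065 and 1076 in treated NTF2-deletion rescue. All of these libraries lay above both untreated knockout libraries of the same gene. PDIA4 had 1676 and 1779 in treated wild-type rescue and 1854 and 1854 in treated NTF2-deletion rescue. CALR had 12520 and 12720 in treated wild-type rescue and 13698 and 13616 in treated NTF2-deletion rescue. For PDIA4 and CALR these lay below both untreated knockout libraries. PDIA6 had 6259 and 6317 in treated wild-type rescue and 6709 and 6560 in treated NTF2-deletion rescue. SSR3, the third highest gene with the deletion form, stood at 1.00 there in the authors' deposited table, with its treated libraries at 5943 and 5571. In the authors' deposited tables PPP1R15A (3.78 and 3.33) and DDIT3 (3.62 and 3.31) were the highest of the further pathway genes, and FKBP7 (-2.52 and -2.05) and KDELR3 (-2.12 and -1.94) the lowest.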

How the data were processed

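The authors' deposited tables give, per gene, a base mean (a signal: the mean normalised reads over both groups), a log2 fold change with its SE, a Wald statistic (a score) and p-values, raw and adjusted, per the file headers. The submitters' processing notes name STAR 2.7.0f and 1.5.3 and DESeq2 2.11.40.6; genome build, annotation, strand use in counting and any shrinkage setting are not given in the sources used here. The authors' fold changes were smaller than the ratios of recovered reads in some cases and larger in others. For SSR4 with arsenite in NTF2-deletion rescue they were -0.46 against a ratio of -0.51. For SSR3 in wild-type rescue over knockout they were 1.41 against 1.39. The ratios rest on size factors over all libraries of an experiment and the fold changes on those of 1 comparison. These gaps are thus no measure of shrinkage. A gene was called at the authors' adjusted p under 0.05.

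Reads per U2OS library were solved from the authors' deposited base means of overlapping comparisons. Whole reads were recovered in all libraries for 42060 of 42067 genes (99.98%); 7, G3BP1 and mitochondrial genes, were not recovered. Size factors of each comparison, taken from its base means and from the recovered reads, differed by at most 0.018%. The normalised reads and their ratios instead used size factors computed over all libraries of an experiment. Recovered libraries carry no replicate number and are given deeper first. Differences between 2 fold changes were tested by a normal approximation on their SEs, adjusted over all genes whose base mean reached 10 in each table. On simulated data it recovered 92% of 200 genes changed by 1 log2 unit among 15648 genes, with 2.13% false calls. Those fold changes were drawn from the same normal law and SEs that the test assumes. The share of false calls thus cannot show whether the authors' SEs are right. On simulated reads the limma fit recovered 83% of 200 genes among 17546, with 8.29% false. Alternatives were limma-trend 3.58.1 on the recovered reads (also without each library), centring on the median of genes whose base mean reached 100, dividing Wald statistics by their robust spread, and filters on low values. That spread was taken over all tested genes, changed ones included. Counts under the alternatives and at an unadjusted p are of the 34 genes only. The matching shares of all genes were not computed. The 34 genes, the pathway lists and the markers were chosen with earlier results of these data known. All 34 are named. Per-library values are given for the 3 highest and 3 lowest called genes per U2OS comparison, where the base mean reached 100. RIP libraries could not be separated. Of the pathway genes the 2 highest and 2 lowest are named, under the same limit. Most genes given per library were picked by fold change in the same comparison. That their libraries do not overlap is thus in part built in and is no further support.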

Additional observations from a re-analysis of the deposited data

Results flagged for a closer look

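The arsenite response differed between kinds of cell for these genes by the test of the difference of log2 fold changes, at an adjusted p under 0.05. Each value is the first response minus the second. Wild-type rescue minus knockout differed for 13 genes: HSP90B1 0.29, HYOU1 0.33, CALR 0.37, CANX 0.37, PDIA3 0.42, PDIA4 0.36, PDIA6 0.39, P4HB 0.43, SEL1L 0.31, SEC61A1 0.28, SSR1 0.41, SSR3 0.36 and SPCS3 0.58. NTF2-deletion rescue minus knockout differed for 24 genes: HSPA5 0.30, HSP90B1 0.45, HYOU1 0.45, CALR 0.58, CANX 0.58, DNAJB11 0.36, DNAJC3 0.43, PDIA3 0.52, PDIA4 0.56, PDIA6 0.55, P4HB 0.55, CRELD2 0.52, MANF 0.44, SEL1L 0.49, EDEM1 0.39, XBP1 0.51, ATF6 0.44, SEC61A1 0.44, SSR1 0.64, SSR2 0.33, SSR3 0.59, SSR4 0.49, SPCS2 0.55 and SPCS3 0.87. Relative to the table medians DNAJB11, DNAJC3 and EDEM1 lost the call in the latter. Wild-type minus NTF2-deletion rescue differed for 2 genes, CALR -0.20 and CANX -0.21, and limma called neither. The knockout libraries enter both of the first comparisons. Transfection and G3BP1 cannot be told apart, and the part of transfection in these differences was not tested.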

How the results depend on the processing

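Dividing the Wald statistics by their spread cut the counts of called genes to 4 higher and 3 lower in RIP, 1 and 8 in knockout against wild type, 3 and 3 in knockout against rescue, 14 higher in wild type against rescue, 7 and 1 in wild-type rescue against knockout, 6 and 1 in NTF2-deletion rescue, 5 and 6 in arsenite-treated wild-type rescue against knockout and 6 and 5 in the treated NTF2-deletion rescue. Centring on the table median gave 13 higher and 8 lower for wild-type rescue, 8 lower for NTF2-deletion rescue and 20 lower for treated wild-type rescue. It reversed HSP90B1 (-0.15), HYOU1 (-0.0017), SEL1L (-0.16) and SSR1 (-0.17) in wild-type rescue, HYOU1 (-0.015) in NTF2-deletion rescue, and DNAJB11 (-0.22) and SEC61A1 (-0.22) in treated wild-type rescue, since it subtracts one positive value from every gene. With a base mean of at least 100 arsenite raised 2 genes in knockout cells, and with limma 3. In limma the arsenite difference between wild-type rescue and knockout was called higher for 24 genes and lower for 1, and that between the rescues for 0; the cause was not tested.

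Leaving out each library in limma gave 3 to 7 higher in knockout against wild type, 9 to 15 higher in knockout against rescue, 4 to 7 lower in NTF2-deletion rescue, 3 higher with arsenite in knockout each time, 17 to 24 higher and 0 to 1 lower for the difference of wild-type rescue and knockout, and 0 for that between the rescues. No paired analysis was possible because the recovered libraries carry no replicate numbers. With 2 libraries per group, small differences in genes with few reads, such as DNAJB9, are least precise.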
